A study of Mus musculus with 14 samples.

Results

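The 44 genes described here are interferon response genes of the mouse, chosen by symbol from a list of known members of the pathway and matched to the gene tables of 2 RNA-seq experiments. All 44 were found among the 24421 genes listed. They comprise nucleic acid sensors, transcription factors, the ISG15 system, the OAS, IFIT and IFITM families, guanylate-binding proteins, immunity-related GTPases, 11 other antiviral effectors and the TAP peptide transporter. In the first experiment, brown adipose tissue (BAT), the heat-producing fat, was compared with white adipose tissue (WAT) of the perigonadal depot, an energy store, with 4 libraries of each tissue from C57BL/6N mice aged 22 weeks. All of these mice were on a high-fat diet (60% of kcal) for 14 weeks at ambient housing temperature, so both tissues come from fat-fed animals. In the second, a cell line labelled BAT was differentiated with insulin, triiodothyronine, dexamethasone, IBMX and rosiglitazone, and on day 7 received 100 µM blebbistatin, an inhibitor of myosin II motors, or the DMSO vehicle for 24 h, with 3 libraries of each treatment. The origin of the line and the sex of the mice are not stated in the labels used here. Replicates carry numbers, and whether different numbers mean different animals or different cultures is not stated, so p-values measure the spread between these libraries, which may be technical.

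Interferons are secreted proteins, of which types I and III are released when sensors detect foreign nucleic acid. Type I and type III interferons act through receptors, JAK kinases and a complex containing STAT2 and IRF9 that binds the interferon-stimulated response element (ISRE) in promoters, and interferon gamma acts mainly through the gamma-activated site (GAS). The genes so induced encode more sensors and transcription factors, enzymes that degrade or modify viral RNA, proteins that block entry or translation, and the peptide transporter of antigen presentation. Macrophages, endothelial cells and adipocytes of adipose tissue can all respond.

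Promoters of members are described first, for those members that had one. RefSeq promoters (build GRCm38.p6, 250 bases before to 50 bases after the start) were available for 33 of the 44 members. The 11 without one include Ifi27, Usp18 and Gbp4, higher in BAT, and Zbp1, Parp14 and Dhx58, lower in BAT. The ISRE core was searched as GAAANNGAA and the GAS core as TTCNNNGAA, on both strands and with overlapping matches counted. An ISRE core was present in 21 of 33 members (63.64%), against 9.76% of the 27025 genes with a promoter of this length, and a GAS core in 9 of 33 (27.27%), against 9.55%. By the tissue comparison, 5 of the 9 members higher in BAT with a promoter held an ISRE core, 6 of the 10 lower in BAT and 10 of the 14 not called. The windows of Xaf1 and Cmpk2, higher in BAT, and of Oasl1, Oasl2, Irf9 and Tap1, lower in BAT, held neither motif. A match is a string of letters and not a measured binding site. In the stretches below, chosen among those with a match and each 5′ to 3′ on the gene's own strand and upstream of the start, capitals mark the ISRE core or, for Irf1, the GAS core.
Ifit1, higher in BAT (chr19:34640755-34640838, plus strand): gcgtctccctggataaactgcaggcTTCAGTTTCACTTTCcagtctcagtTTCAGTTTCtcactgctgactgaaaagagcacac
Isg15, higher in BAT (chr4:156200851-156200921, minus strand): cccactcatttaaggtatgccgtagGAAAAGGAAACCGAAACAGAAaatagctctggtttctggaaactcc
Rsad2, higher in BAT (chr12:26456538-26456596, minus strand): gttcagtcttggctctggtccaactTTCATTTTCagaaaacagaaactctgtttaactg
Gbp3, higher in BAT (chr3:142559975-142560039, plus strand): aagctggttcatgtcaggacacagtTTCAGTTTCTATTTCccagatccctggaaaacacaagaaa
Irf1, higher in BAT (chr11:53769899-53769957, plus strand): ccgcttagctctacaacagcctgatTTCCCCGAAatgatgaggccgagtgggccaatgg
Oas1a, lower in BAT (chr5:120907526-120907570, minus strand): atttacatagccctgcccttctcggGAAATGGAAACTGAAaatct
Oas3, lower in BAT (chr5:120777695-120777759, minus strand): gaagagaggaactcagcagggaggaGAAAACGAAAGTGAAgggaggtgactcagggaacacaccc
Ifih1, lower in BAT (chr2:62646334-62646392, minus strand): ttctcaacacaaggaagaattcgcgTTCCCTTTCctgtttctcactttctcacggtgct
Isg15 and Ifit1 each held 3 ISRE cores in these stretches, and Gbp3, Oas1a and Oas3 held 2 each.

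Sequencing was uneven between the tissues. BAT libraries held 1014959 to 2335058 reads in genes and WAT libraries 6859404 to 16091372, while blebbistatin libraries held 10920307 to 12978198 and vehicle libraries 10685378 to 14176846. Reads in genes made up 19.06% to 42.26% of the mapped reads implied for BAT and 71.13% to 83.03% of those for WAT. Levels are therefore compared between groups as CPM of the reads in genes after TMM scaling. RPKM sets genes of 1 group side by side and enters as an alternative scaling. Where RPKM of BAT and WAT are printed together, their difference is not a result about the members. As a check of the labels, all 7 brown adipocyte markers were higher in BAT. Of 17 macrophage markers, 17 were lower in BAT, with a summed level of 781 to 1896 CPM in BAT and 16217 to 22357 CPM in WAT. Of 10 endothelial markers 9 were higher in BAT, with sums of 1457 to 1691 CPM in BAT and 411 to 510.1 CPM in WAT. The 8 skeletal muscle markers summed to 28749 CPM in BAT replicate 4, to 1879 to 3879 CPM in the other BAT libraries, and to 15.9 to 40.0 CPM in WAT. In bulk tissue, fewer cells of a type and less RNA per cell cannot be told apart.

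The interferon response genes did not move as a block between the tissues. Of 42 members tested, 12 were higher in BAT, led by Ifi27 and the antiviral enzyme Rsad2 (viperin), and 13 were lower in BAT, led by 4 of the 5 OAS family members, the nucleic acid sensor Zbp1 and the ubiquitin ligase Trim25. The other 17 were not called. Across all 12754 genes tested, 30.7% were called higher and 31.6% lower (limma, Benjamini-Hochberg adjusted p under 0.05), so the numbers of members called are near the background in both directions. The same shares are the background for the counts by family below. The median log2 fold change, BAT over WAT, was -0.15 over the members and -0.05 over all genes tested. Every BAT library was above every WAT library for 11 members, against 28.4% of all genes, and below every WAT library for 11 members, against 29.8%. The macrophage and endothelial markers given above moved with these differences, and their part in them was not tested.

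**Figure D1:**
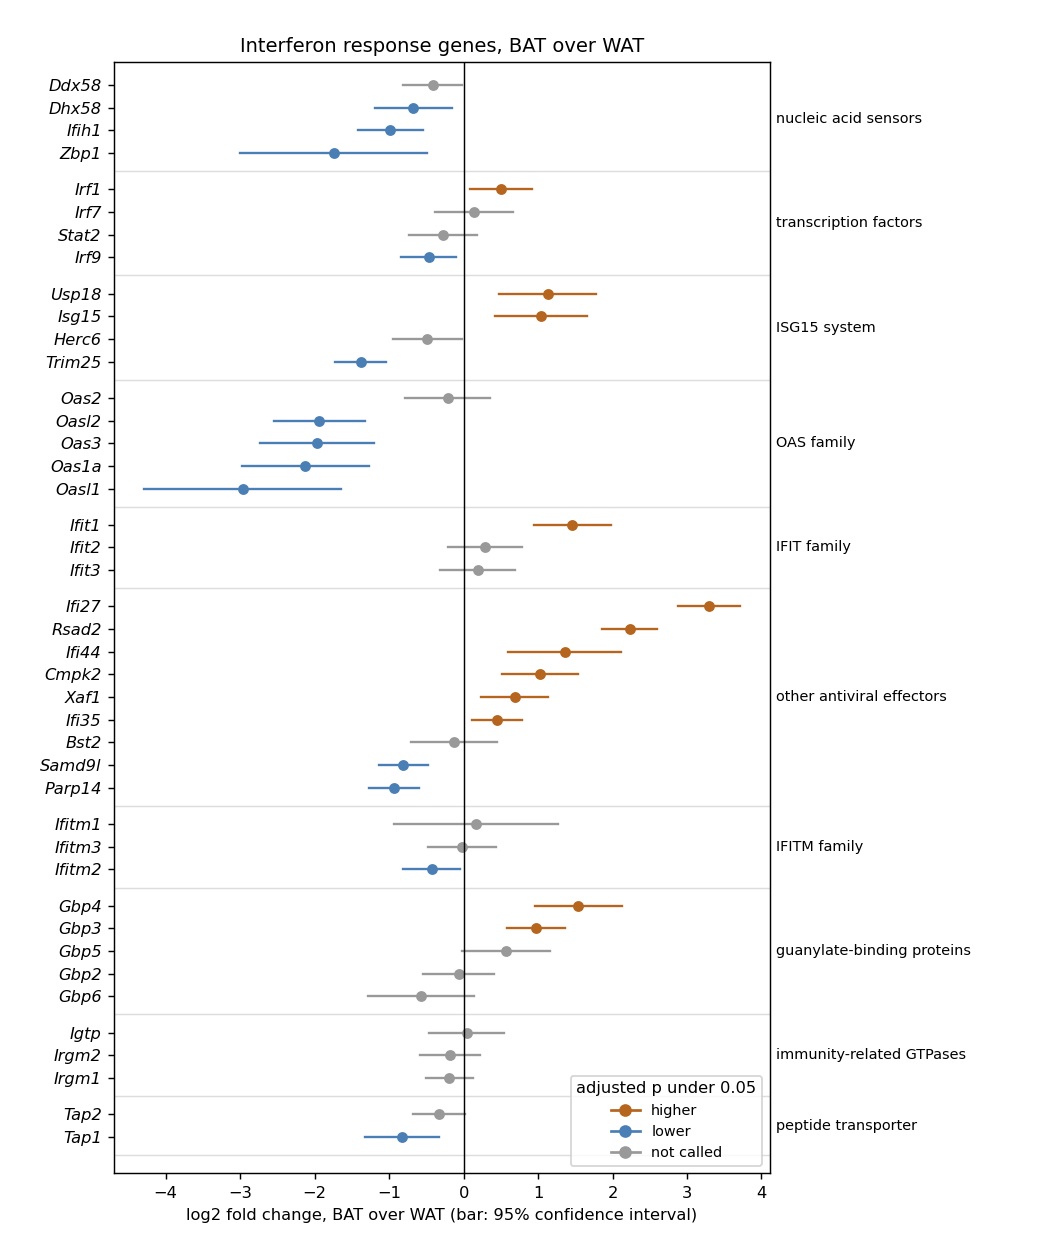
Log2 fold change, BAT over WAT, of the 42 tested interferon response genes (rows, by role), with 95% confidence intervals from limma as bars and n = 4 libraries per tissue. Members called higher in BAT are brown, called lower blue and not called grey. Ifi27 lies farthest to the right at 3.30 and Oasl1 farthest to the left at -2.97, and the OAS family and the nucleic acid sensors lie to the left of 0 throughout.

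Of the 4 nucleic acid sensors, 3 were called lower in BAT, where 31.6% of all genes were. Ifih1 (MDA5), which detects long double-stranded RNA, measured 14.98, 17.7, 15.2 and 10.0 CPM in BAT and 33.6, 30.3, 24.4 and 26.7 CPM in WAT. No BAT value reached the lowest WAT value, and the log2 fold change was -0.98 ± 0.20 (SE, limma, adjusted p = 0.000937). Zbp1, a sensor of Z-form nucleic acid that triggers cell death, measured 1.32, 2.76, 0 and 4.02 CPM in BAT and 6.37, 7.36, 5.14 and 5.08 CPM in WAT. The BAT libraries all lay below the WAT libraries, with a log2 fold change of -1.75 ± 0.58 (SE, limma, adjusted p = 0.0190). These BAT values rest on 3, 5, 0 and 6 reads, and the 0 of replicate 3 allows up to 3.26 CPM, so the size of the Zbp1 difference is poorly fixed, and it was -1.14 without that library. The deposited RPKM of Zbp1 comes from another transcript, of 775 bases against 1977 bases in the count table, and was 0.664, 0.542, 0.969 and 1.476 in BAT and 4.221, 5.487, 3.905 and 4.295 in WAT, with no 0 in BAT replicate 3. Dhx58 (LGP2), a regulator of the sensors Ddx58 and Ifih1, was lower at -0.67 ± 0.24 (log2, SE, limma, adjusted p = 0.0257), although the tissues overlapped, and its adjusted p was 0.0620 without WAT replicate 2 and 0.0587 without WAT replicate 4. Ddx58 (RIG-I), which detects RNA with a triphosphate end, was not called at -0.42 (log2, 95% confidence interval -0.82 to -0.02), but was called lower at -0.53 without BAT replicate 1, at -0.56 without BAT replicate 3 and at -0.58 without WAT replicate 4.

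Among the transcription factors, which carry the response to promoters, 1 was higher and 1 lower. Irf1, induced through GAS elements, averaged 49.4 ± 11.2 CPM in BAT and 34.3 ± 4.83 CPM in WAT (SD, n = 4 each), a log2 fold change of 0.50 ± 0.19 (SE, limma, adjusted p = 0.0360). That call was lost without any 1 of 7 of the 8 libraries (all but BAT replicate 3), where the log2 fold change lay between 0.33 and 0.51 and the adjusted p was 0.0592 to 0.168. Irf9, the DNA-binding subunit of the STAT complex, was lower at -0.47 ± 0.17 (log2, SE, limma, adjusted p = 0.0299), with overlapping tissues and an adjusted p of 0.0574 without WAT replicate 4. Irf7, which amplifies interferon production, and Stat2 were not called, at 0.14 and -0.28 on the log2 scale.

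The ISG15 system, a ubiquitin-like modifier with its ligases and protease, split in both directions. Isg15, the modifier itself, measured 7.93, 10.5, 7.60 and 14.1 CPM in BAT and 3.47, 6.10, 3.79 and 4.88 CPM in WAT. Usp18, the protease that removes ISG15 and damps signalling at the type I receptor, measured 11.5, 7.18, 6.51 and 6.02 CPM in BAT and 2.43, 3.26, 2.84 and 4.48 CPM in WAT. In both genes each BAT library stood above each WAT library, and the log2 fold changes were 1.04 ± 0.28 for Isg15 (adjusted p = 0.00642) and 1.13 ± 0.30 for Usp18 (adjusted p = 0.00583; SE, limma). Trim25, a ubiquitin ligase that activates RIG-I and can also conjugate ISG15, went the other way. It measured 48.0, 47.5, 33.6 and 50.2 CPM in BAT and 97.9, 125.1, 119.6 and 125.7 CPM in WAT, 2.61-fold lower in BAT, with a log2 fold change of -1.38 ± 0.16 (SE, limma, adjusted p = 8.87e-06) and wide separation of the tissues. Herc6, the ISG15 ligase of the mouse, was at lower CPM in every BAT library than in every WAT library but missed the threshold (log2 fold change -0.49, limma adjusted p = 0.0634). It was called lower without BAT replicate 1, BAT replicate 3, BAT replicate 4 or WAT replicate 3, at -0.62, -0.60, -0.56 and -0.61.

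The OAS family makes the second messenger that activates RNase L when it binds double-stranded RNA. Of its 5 members, 4 were called lower in BAT, where 31.6% of all genes were. Oasl1 measured 4.41, 4.42, 0 and 1.34 CPM in BAT and 15.4, 14.4, 17.5 and 19.0 CPM in WAT. Oas1a measured 6.17, 4.97, 1.09 and 4.69 CPM in BAT and 14.99, 19.3, 17.2 and 19.5 CPM in WAT. BAT lay below WAT in every library for both, by 6.52-fold for Oasl1 and 4.20-fold for Oas1a in mean CPM. The log2 fold changes were -2.97 ± 0.61 for Oasl1 (adjusted p = 0.00106) and -2.13 ± 0.39 for Oas1a (adjusted p = 0.000475; SE, limma). The BAT values of Oasl1 rest on 10, 8, 0 and 2 reads, the 0 of BAT replicate 3 allows up to 3.26 CPM, and the log2 fold change of Oasl1 was -2.30 without that library. Those of Oas1a rest on 14, 9, 1 and 7 reads. The log2 fold change of Oas1a lay between -2.42 and -1.70 when a library was left out. Oasl1, which lacks the synthetase activity, is a translational repressor of Irf7 in the mouse, and Oas1a is one of several close Oas1 paralogs, between which reads may have been split.

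Oas3 measured 2.20, 0.553, 1.09 and 1.34 CPM in BAT and 6.43, 6.10, 6.09 and 5.88 CPM in WAT. Oasl2 measured 8.81, 6.08, 14.1 and 10.0 CPM in BAT and 55.6, 42.4, 25.6 and 32.0 CPM in WAT. The tissues did not overlap for either gene, and BAT was 4.73-fold lower in Oas3 and 3.99-fold lower in Oasl2, with log2 fold changes of -1.96 ± 0.35 (adjusted p = 0.000375) and -1.94 ± 0.28 (adjusted p = 6.84e-05; SE, limma). Oas3 rests on 5, 1, 1 and 2 reads in the BAT libraries. Oas2 was the exception, with 11.5 ± 3.99 CPM in BAT and 13.1 ± 2.63 CPM in WAT (SD, n = 4 each) and a log2 fold change of -0.22 (95% confidence interval -0.79 to 0.35). Oas2 lies in a stretch of 177.2 kb on chromosome 5 (mm9 121180342 to 121357534) with Oas3 and Oas1a, both of which were lower in BAT.

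The IFIT proteins bind viral RNA by its 5′ end and block its translation, and 1 of the 3 was called. Ifit1 measured 15.9, 17.1, 21.7 and 25.4 CPM in BAT and 8.80, 6.62, 4.87 and 7.67 CPM in WAT. The lowest BAT library stood above the highest WAT library, a log2 fold change of 1.46 ± 0.24 (SE, limma, adjusted p = 0.000181). The members nearest to it on chromosome 19, Ifit2 and Ifit3, were not called, at 0.29 (95% confidence interval -0.20 to 0.79) and 0.19 (95% confidence interval -0.32 to 0.69) on the log2 scale.

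Of the other antiviral effectors, 9 were tested, and 6 were higher and 2 lower in BAT, where 30.7% of all genes were higher and 31.6% lower. Ifi27, a small membrane protein (aliases ISG12a and Ifi27l1 in the gene tables, chromosome 12, mm9 104672399 to 104678455), had the largest rise. It measured 1988, 2219, 1434 and 1265 CPM in BAT and 156.4, 152.2, 196.4 and 182.2 CPM in WAT. The lowest BAT library was far above the highest WAT library, and the mean was 10.0-fold higher in BAT, with a log2 fold change of 3.30 ± 0.19 (SE, limma, adjusted p = 3.28e-08). Ifi27 made up 50.5% to 65.2% of the summed CPM of all 44 members in BAT and 9.51% to 14.6% in WAT. Without it the members summed to 1041 to 1240 CPM in BAT and 1148 to 1448 CPM in WAT, which overlap. Its paralog Ifi27l2a starts 1920 bases after its end and was chosen for mention after its values were seen. Ifi27l2a rose by a log2 fold change of only 0.43 ± 0.16 (SE, limma, adjusted p = 0.0303).

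Rsad2 encodes viperin, a radical SAM enzyme whose product terminates viral RNA chains, and Cmpk2, the next gene on chromosome 12, encodes a mitochondrial nucleotide kinase. Rsad2 measured 101.3, 131.5, 74.9 and 105.8 CPM in BAT and 20.1, 23.4, 19.6 and 21.9 CPM in WAT. Cmpk2 measured 13.2, 28.7, 17.4 and 20.8 CPM in BAT and 8.45, 9.25, 10.3 and 9.07 CPM in WAT. Both were higher in every BAT library than in any WAT library, by 4.86-fold for Rsad2 and 2.16-fold for Cmpk2 in mean CPM. The log2 fold changes were 2.23 ± 0.17 for Rsad2 (adjusted p = 3.15e-07) and 1.02 ± 0.23 for Cmpk2 (adjusted p = 0.00229; SE, limma). The genes lie on opposite strands, 12.8 kb apart at their nearest ends.

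Ifi44, an interferon-induced cytoplasmic protein, measured 5.29, 4.97, 5.43 and 8.03 CPM in BAT and 2.55, 3.26, 1.22 and 1.40 CPM in WAT. The tissues were apart, with a log2 fold change of 1.36 ± 0.35 (SE, limma, adjusted p = 0.00464). Xaf1, a pro-apoptotic antagonist of XIAP, and Ifi35, a partner of NMI, rose less, by 0.68 ± 0.20 (adjusted p = 0.0111) and 0.45 ± 0.15 (adjusted p = 0.0216) on the log2 scale (SE, limma). The Ifi35 call was lost without BAT replicate 2 or 4 or without any 1 of WAT replicates 1, 2 and 3, with log2 fold changes of 0.35 to 0.41 and adjusted p of 0.0722 to 0.0925. Parp14, a mono-ADP-ribosyltransferase, measured 43.2, 39.2, 29.3 and 40.2 CPM in BAT and 73.5, 82.5, 68.9 and 64.9 CPM in WAT. Its tissues were apart, with a log2 fold change of -0.93 ± 0.15 (SE, limma, adjusted p = 0.000192). Samd9l, a restriction factor that inhibits translation, fell by 0.81 ± 0.15 on the log2 scale (SE, limma, adjusted p = 0.000508). Mx1 and Mx2, dynamin-like GTPases that trap viral particles, were too low to test, each with 9 reads over all BAT libraries and 59 over all WAT libraries.

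**Figure D2:**
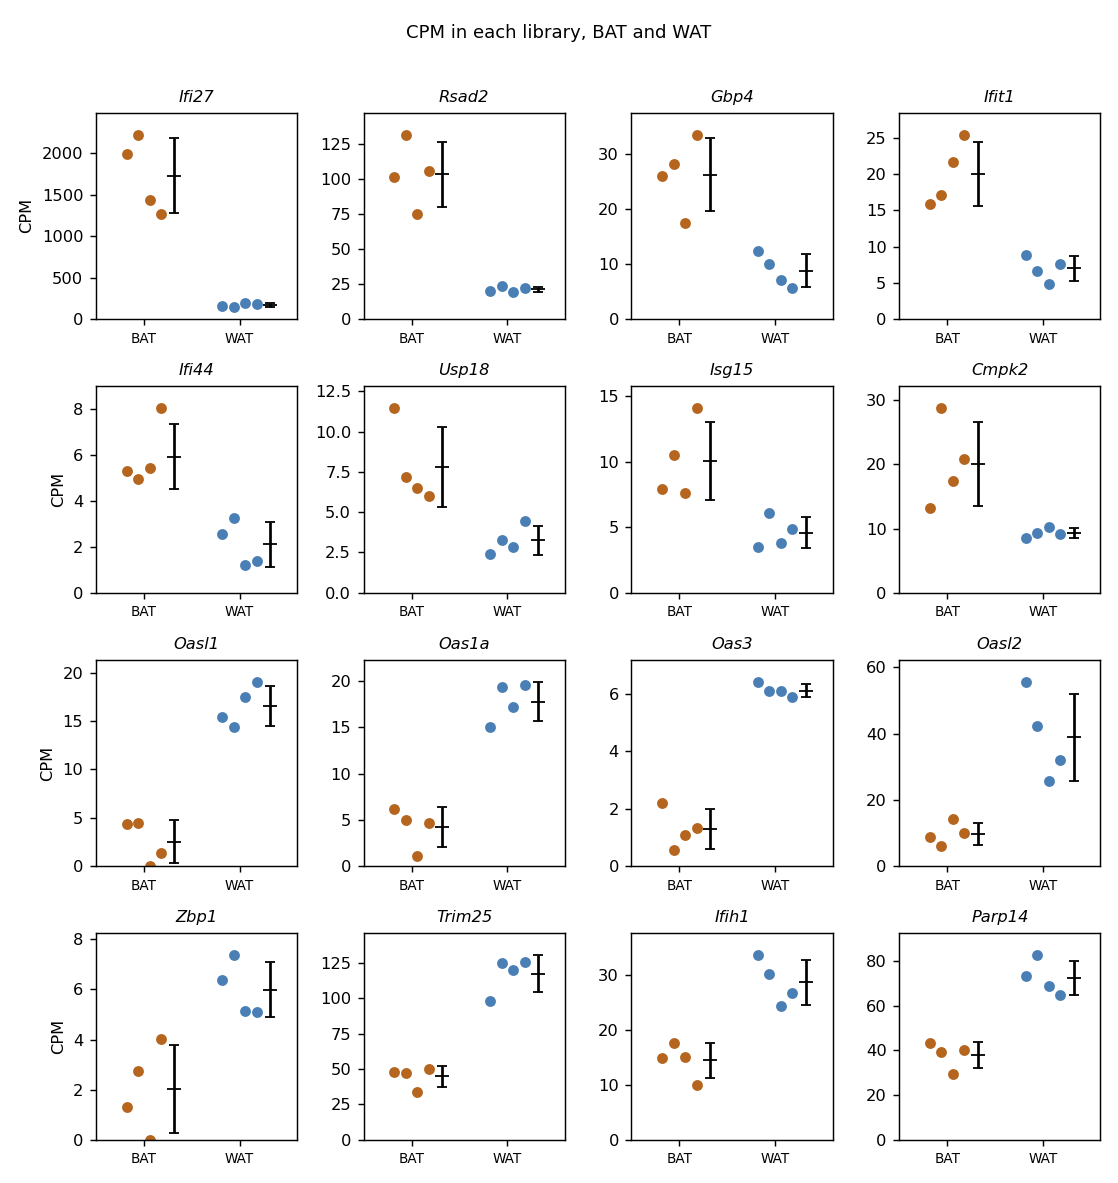
CPM (vertical axes, each from 0) of the 8 members with the largest called rises and the 8 with the largest called falls in BAT, with 1 point per library and the mean ± SD beside each group (n = 4 each). In all 16 panels the BAT points and the WAT points are apart, and Oasl1 and Zbp1 have 0 reads in BAT replicate 3 in the count table.

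The IFITM proteins block fusion of virus with the cell membrane, and tetherin (Bst2) holds budding virus at the cell surface. Ifitm2, Ifitm3 and Bst2 were among the most abundant members, while Ifitm1 was low, at 1.35 RPKM in BAT and 2.75 RPKM in WAT, and was not called (log2 fold change 0.16, 95% confidence interval -0.94 to 1.26). Ifitm2 measured 150.7, 150.3, 182.4 and 155.3 CPM in BAT and 285.9, 225.4, 153.9 and 213.9 CPM in WAT. The tissues overlapped, with WAT replicate 3 below BAT replicates 3 and 4, and the call of lower in BAT stood at the threshold (log2 fold change -0.43 ± 0.18, SE, limma, adjusted p = 0.0497). It was lost without any 1 of 6 of the 8 libraries (all but BAT replicate 3 and WAT replicate 3), at -0.34 to -0.48 on the log2 scale with adjusted p of 0.0580 to 0.0962. Ifitm3 measured 162.1, 124.3, 96.6 and 143.3 CPM in BAT and 165.7, 153.0, 91.0 and 128.5 CPM in WAT. Bst2 measured 39.2, 32.6, 19.5 and 36.1 CPM in BAT and 20.8, 41.3, 33.7 and 44.4 CPM in WAT. Both overlapped fully, with 95% confidence intervals of -0.47 to 0.43 for Ifitm3 and -0.70 to 0.45 for Bst2 around log2 fold changes of -0.02 and -0.13.

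The guanylate-binding proteins and immunity-related GTPases are induced mainly by interferon gamma and take part in defence against intracellular pathogens. Of these 8 members, 2 were called higher and none lower in BAT, where 30.7% of all genes were higher and 31.6% lower. Gbp4 measured 26.0, 28.2, 17.4 and 33.5 CPM in BAT and 12.3, 10.1, 7.17 and 5.68 CPM in WAT. Every BAT library was above every WAT library, with a log2 fold change of 1.54 ± 0.27 (SE, limma, adjusted p = 0.000309). Gbp3 was also higher with no overlap, at 31.9 ± 2.59 CPM in BAT and 16.2 ± 3.28 CPM in WAT (SD, n = 4 each), a log2 fold change of 0.97 ± 0.18 (SE, limma, adjusted p = 0.000459). The members nearest to it on chromosome 3, Gbp2 and Gbp5, were not called, at -0.07 and 0.57. Gbp6, the member nearest to Gbp4 on chromosome 5, was also not called, at -0.57. Gbp genes have close paralogs, between which reads may have been split. Igtp, Irgm1 and Irgm2 were not called and lay between -0.19 and 0.04 on the log2 scale.

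The TAP transporter carries peptides to MHC class I molecules. Its subunit Tap1 averaged 18.5 ± 6.03 CPM in BAT and 31.9 ± 2.62 CPM in WAT (SD, n = 4 each), with no overlap and a log2 fold change of -0.83 ± 0.23 (SE, limma, adjusted p = 0.00688). Tap2 was not called at -0.33 (95% confidence interval -0.67 to 0.01). Of 17 MHC class I and immunoproteasome genes listed beside the members, 11 were lower and none higher in BAT, where 31.6% of all genes were lower and 30.7% higher. H2-D1, a classical class I heavy chain, averaged 530.4 ± 97.7 CPM in BAT and 1616 ± 173 CPM in WAT (SD, n = 4 each).

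The wider pathway was described with lists that, like the members, had been chosen with earlier results of these data known. Of 21 interferon genes, 18 had no read in either tissue, and the others had 1 or 2 reads in all, none of them in BAT, so ligand transcripts were not measurable at this depth. Of 10 tested genes of the receptors and JAK-STAT kinases, 6 were lower and 0 higher in BAT, with Ifngr2, a subunit of the interferon gamma receptor, at -1.94 ± 0.19, the shared subunit Il10rb at -1.50 ± 0.15 and the kinase Tyk2 at -1.16 ± 0.16 (log2, SE, limma). Of 16 genes that sense nucleic acid and signal upstream of interferon, 13 were lower, led by Tlr7 at -3.36 ± 0.34, Irf5 at -3.30 ± 0.29 and Tlr9 at -3.25 ± 0.42, and 2 were higher (log2, SE, limma). Of 9 genes that restrain the response, 7 were lower, led by the phosphatase Ptpn6 at -3.69 ± 0.35 and the nucleotide hydrolase Samhd1 at -2.61 ± 0.17, and 1 was higher (log2, SE, limma). Of 44 further interferon-induced genes tested, 20 were lower, led by Slfn2 at -3.52 ± 0.37, Ifi205 at -2.84 ± 0.25 and Trim14 at -2.80 ± 0.29, and 10 were higher (log2, SE, limma). Beside these counts, 31.6% of all genes tested were called lower and 30.7% higher. The median log2 fold changes were -0.86 for receptors and JAK-STAT, -0.97 for sensing, -0.91 for restraint and -0.37 for the further genes, beside -0.05 over all genes tested. Ptpn6, Tlr7, Tlr9, Irf5 and Slfn2 are also expressed by leukocytes, and the part of the macrophage markers in these values was not tested.

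The rises in BAT depended on the scaling. Without TMM factors the median of all genes moved to -0.26 and 9 members were called higher and 17 lower, against 12 and 13. The same numbers of members were called without the filter on low genes, where the median of all genes was -0.09. The TMM factors were computed anew there on the unfiltered genes, so that setting changed the scaling too. Irf1, for example, stood at 0.29 on the log2 scale in both settings. In both settings Irf1, Ifi35 and Xaf1 lost their calls and Ddx58 and Herc6 were called lower. On deposited RPKM, which counts all mapped reads, the median gene moved to -1.51 and 1 member was called higher and 31 lower, and with RPKM centred on each library's median gene 13 were called higher and 11 lower, with Zbp1 and Ifitm2 no longer called. On uncentred RPKM Ifi27 was the only member called higher, at 1.83 on the log2 scale. Rsad2 at 0.71, Gbp4 at 0.07 and Ifi44 at 0.04 lost their calls there, and the other 8 of the members higher in BAT had log2 fold changes below 0 (Irf1, Isg15, Usp18, Ifit1, Cmpk2, Ifi35, Xaf1 and Gbp3). In the authors' deposited table, whose adjusted p-values come from edgeR, 9 members were higher and 16 lower at an adjusted p under 0.05.

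Libraries of a tissue were not alike for these genes. BAT replicate 3, with the fewest reads, was the lowest BAT library for 22 of 42 members, against 29.82% of all genes, and WAT replicate 3 the lowest WAT library for 18 of 42, against 29.16%. BAT replicate 4, the library with the high muscle markers, was the highest BAT library for 17 of 42 members, against 28.79% of all genes. Without BAT replicate 3, 12 members were called higher and 15 lower, and without BAT replicate 4, 11 and 13.

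Levels of different members were compared per length, as mean RPKM within a group. In BAT the order began with Ifi27 at 618 ± 318, Ifitm2 at 76.9 ± 20.3 and Ifitm3 at 65.2 ± 29.9 RPKM (SD, n = 4), of which the IFITM values did not differ beyond their spread. In WAT it began with Ifitm2 at 296 ± 55.0, Ifitm3 at 176 ± 36.5 and Ifi27 at 155 ± 20.8 RPKM (SD, n = 4), with the last pair within their spread. Bst2 was ranked 4 in both tissues, at 13.6 ± 6.67 RPKM in BAT and 39.6 ± 13.2 RPKM in WAT. The median member stood at 1.94 RPKM in BAT and 5.53 RPKM in WAT, and 13 members in BAT and 3 in WAT averaged under 1 RPKM. The tissues cannot be compared on these values, because the median log2 fold change of all genes, BAT over WAT, was -1.51 on RPKM. In cells Ifitm2 led with 199 ± 37.2 RPKM under blebbistatin and 174 ± 6.83 RPKM under vehicle, followed by Ifitm3 with 131 ± 20.3 RPKM under blebbistatin and 107 ± 29.7 RPKM under vehicle (SD, n = 3 each). Ifi27 came next, with 60.9 ± 10.3 RPKM under blebbistatin and 56.9 ± 14.0 RPKM under vehicle, and then Irf1, with 29.7 ± 3.11 RPKM under blebbistatin and 25.9 ± 0.751 RPKM under vehicle. Rsad2, ranked 5 in BAT, averaged 0.120 RPKM under blebbistatin and 0.0363 RPKM under vehicle. Tissue and cell tables were normalised separately, so only ranks and detection are set across them.

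**Figure D3:**
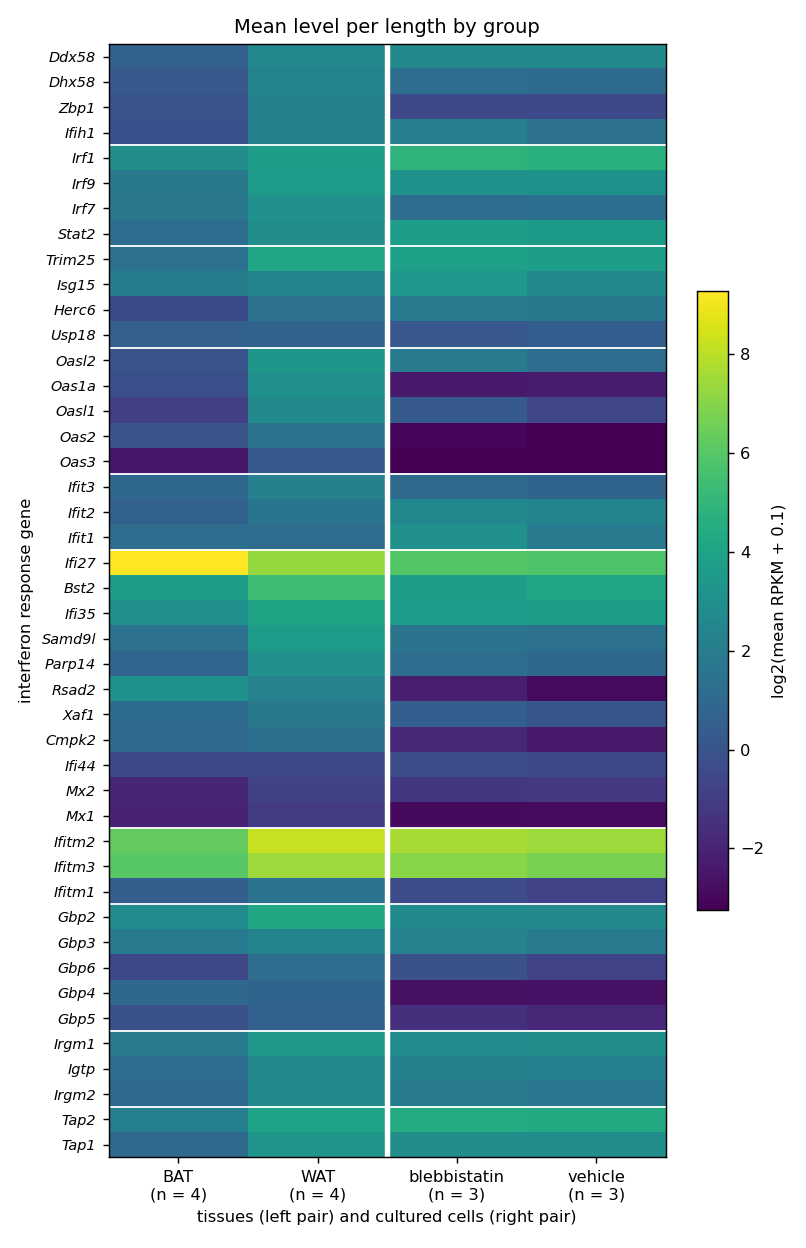
Mean level per length, as log2(mean RPKM + 0.1), of the 44 interferon response genes (rows, by role) in BAT, WAT, blebbistatin and vehicle (columns). Ifi27, Ifitm2 and Ifitm3 are the brightest rows in all columns, while Rsad2, Cmpk2, Gbp4, Oas1a, Oas2 and Oas3 are dark in both cell columns. Columns of BAT and WAT differ in the share of mapped reads in genes, so colours are to be read down a column.

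The second question was whether 24 h of blebbistatin changed these genes in cultured cells, and no member passed the test. Of 44 members 35 were tested, and 0 were called higher or lower by limma and 0 by edgeR's quasi-likelihood test, where limma called 0.133% of all 12808 genes tested higher and 0.734% lower. DESeq2 called 2 members higher, Ifit1 and Ifih1, where it called 1.08% of all genes higher. At an unadjusted p under 0.05, 6 members were higher (Ifit1, Ifih1, Oasl1, Gbp6, Gbp3 and Isg15), against 5.21% of all genes, and 0 were lower, against 7.24%. Every blebbistatin library was above every vehicle library for 5 tested members, against 9.62% of all genes, and below for 0, against 9.99%. The log2 fold change, blebbistatin over vehicle, was above 0 for 25 of 35 members (71.43%), against 51.48% of all genes, with medians of 0.14 over the members and 0.01 over all genes. Members share the same libraries, so these counts are not independent. Between libraries of a treatment the members' median level had a pooled SD of 0.28 (log2), larger than the 0.14. That median lay between 0.07 and 0.20 when a library was left out. The cells carried the brown adipocyte markers at 155 to 207 CPM summed under blebbistatin and 114 to 299.6 CPM under vehicle, and none of those 7 was called. Of 17 macrophage markers 6 to 9 had no read in a blebbistatin library and 8 to 9 in a vehicle library, with C1qa, C1qb, C1qc and Adgre1 at 0 in all, and none of the 21 interferon genes had a read in any.

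Ifit1 measured 25.5, 25.03 and 32.2 CPM under blebbistatin and 7.93, 9.40 and 18.3 CPM under vehicle. The blebbistatin libraries were all above the vehicle libraries, of which replicate 3 was closest to them. The log2 fold change was 1.26 ± 0.28 (SE, limma, 95% confidence interval 0.61 to 1.92), with an unadjusted p of 0.00211 and an adjusted p of 0.109. Without vehicle replicate 3 it was called, at 1.61 with an adjusted p of 0.0242, and without the other libraries in turn it was not. DESeq2 gave an adjusted p of 0.00378, and the authors' deposited table gives a log2 fold change of 1.22 with an adjusted p of 0.00142.

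Ifih1 measured 31.4, 23.8 and 32.2 CPM under blebbistatin and 18.04, 17.7 and 20.8 CPM under vehicle. The groups were apart, with a log2 fold change of 0.61 ± 0.15 (SE, limma, 95% confidence interval 0.26 to 0.96, adjusted p = 0.135). DESeq2 called it with an adjusted p of 0.0238, and the authors' deposited table gives an adjusted p of 0.0504. Oasl1 measured 3.65, 2.47 and 2.69 CPM under blebbistatin and 1.04, 1.57 and 1.88 CPM under vehicle. Gbp6 measured 4.19, 3.89 and 4.82 CPM under blebbistatin and 2.93, 2.71 and 2.83 CPM under vehicle. Both pairs of groups were apart but neither gene passed the test, with log2 fold changes of 0.79 ± 0.25 for Oasl1 (adjusted p = 0.233) and 0.53 ± 0.18 for Gbp6 (adjusted p = 0.270; SE, limma).

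Gbp3 measured 14.0, 15.3 and 17.4 CPM under blebbistatin and 11.6, 11.5 and 13.4 CPM under vehicle, close but without overlap (log2 fold change 0.34, limma adjusted p = 0.378). Isg15 measured 11.3, 9.71 and 9.08 CPM under blebbistatin and 3.49, 5.63 and 9.70 CPM under vehicle. It overlapped through vehicle replicate 3 and did not pass (log2 fold change 0.73, 95% confidence interval 0.01 to 1.46, limma adjusted p = 0.392). Rsad2 was too low to test, with 0.543, 0.523 and 0.648 CPM under blebbistatin and 0.0943, 0.143 and 0.283 CPM under vehicle, which is 21 reads over the blebbistatin libraries and 6 over the vehicle libraries. The other untested members were Oas1a, Oas2, Oas3, Mx1, Cmpk2, Ifitm1, Gbp4 and Gbp5, with at most 15 reads in any library.

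The most abundant members in the cells were not called. Ifitm2 measured 139.8, 125.7 and 207.6 CPM under blebbistatin and 144.8, 135.7 and 138.3 CPM under vehicle, and Ifitm3 99.4, 86.4 and 135.9 CPM under blebbistatin and 65.1, 95.6 and 101.0 CPM under vehicle. Ifi27 measured 76.8, 80.5 and 61.5 CPM under blebbistatin and 54.1, 84.5 and 74.2 CPM under vehicle. All of these groups overlapped, with 95% confidence intervals of the log2 fold change of -0.27 to 0.55 for Ifitm2, -0.19 to 0.79 for Ifitm3 and -0.36 to 0.47 for Ifi27. Irf1 measured 82.9, 74.8 and 79.4 CPM under blebbistatin and 74.99, 69.7 and 67.9 CPM under vehicle, an overlap by a narrow margin and a log2 fold change of 0.16 (95% confidence interval -0.07 to 0.38).

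**Figure D4:**
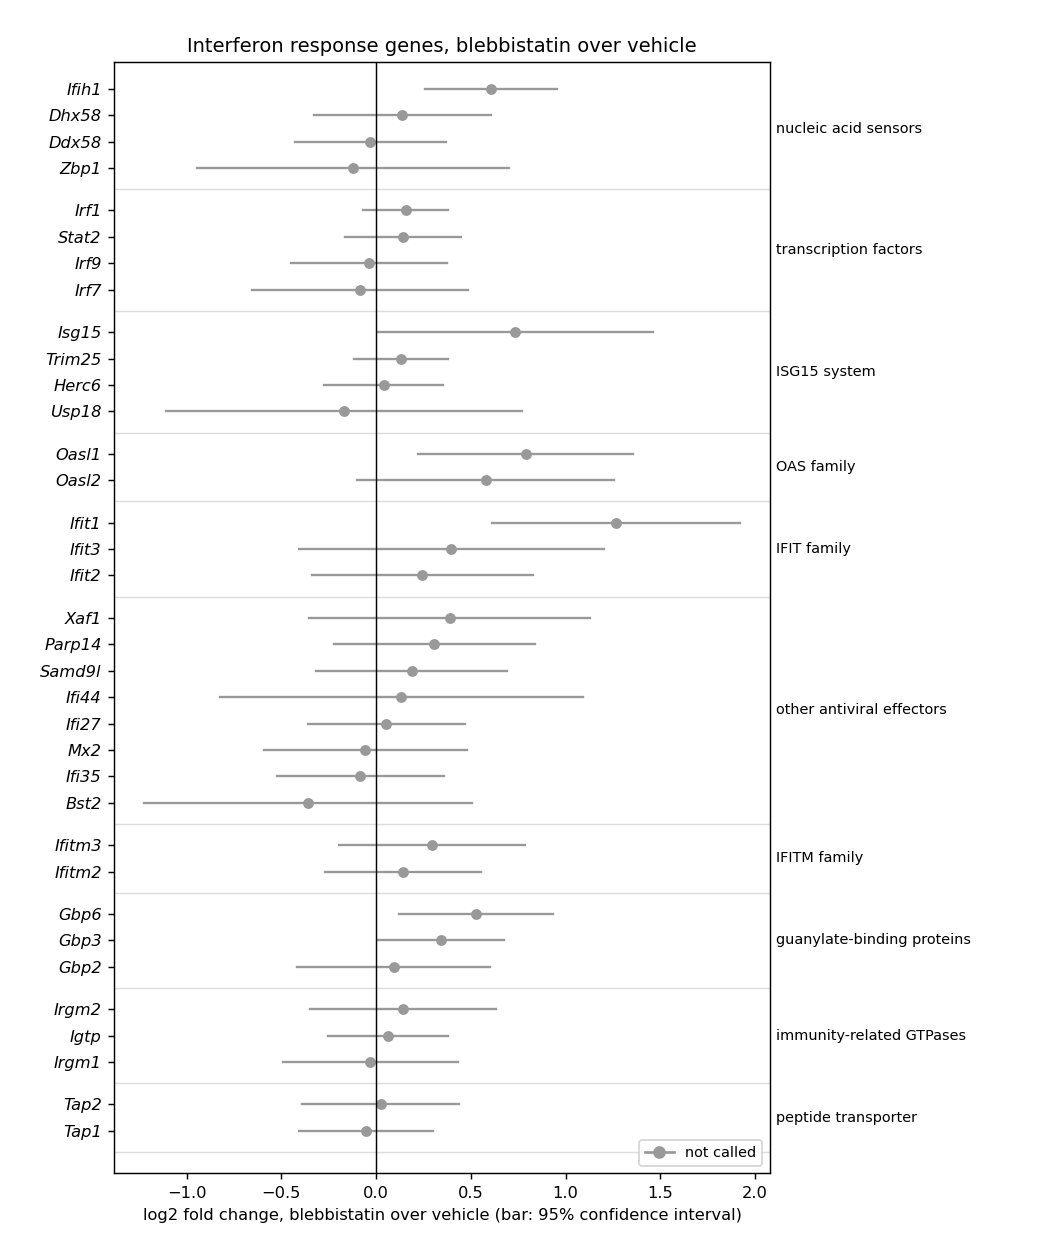
Log2 fold change, blebbistatin over vehicle, of the 35 tested interferon response genes (rows, by role), with 95% confidence intervals from limma as bars and n = 3 libraries per treatment. All points are grey because no member was called, 25 lie to the right of 0, and Ifit1 lies farthest to the right at 1.26.

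The cell libraries of a treatment also differed among themselves. The SD in CPM was larger under blebbistatin for 20 of the 35 tested members and larger under vehicle for 15. Blebbistatin replicate 3 was the highest blebbistatin library for 21 of 35 members, against 41.11% of all genes. Vehicle replicate 1 was the lowest vehicle library for 25 of 35 members, against 42.91% of all genes, and vehicle replicate 3 the highest for 23 of 35, against 33.9%. Isg15 ran between 9.08 and 11.3 CPM under blebbistatin and between 3.49 and 9.70 CPM under vehicle. Usp18 had 2.56, 2.24 and 1.76 CPM under blebbistatin and 1.04, 2.99 and 4.52 CPM under vehicle, so its blebbistatin values lay inside the vehicle range. The same vehicle libraries differed in Ucp1, the uncoupling protein of brown fat, with 123, 52.6 and 26.1 CPM in replicates 1, 2 and 3, and the part of differentiation in the spread of the interferon response genes was not tested. The listed genes of the pathway beyond the members gave no call in the cells, with 0 of 10 receptor and JAK-STAT genes, 0 of 13 sensing genes, 0 of 10 restraining genes, 0 of 38 further interferon-induced genes and 0 of 17 MHC class I genes called by limma.

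**Figure D5:**
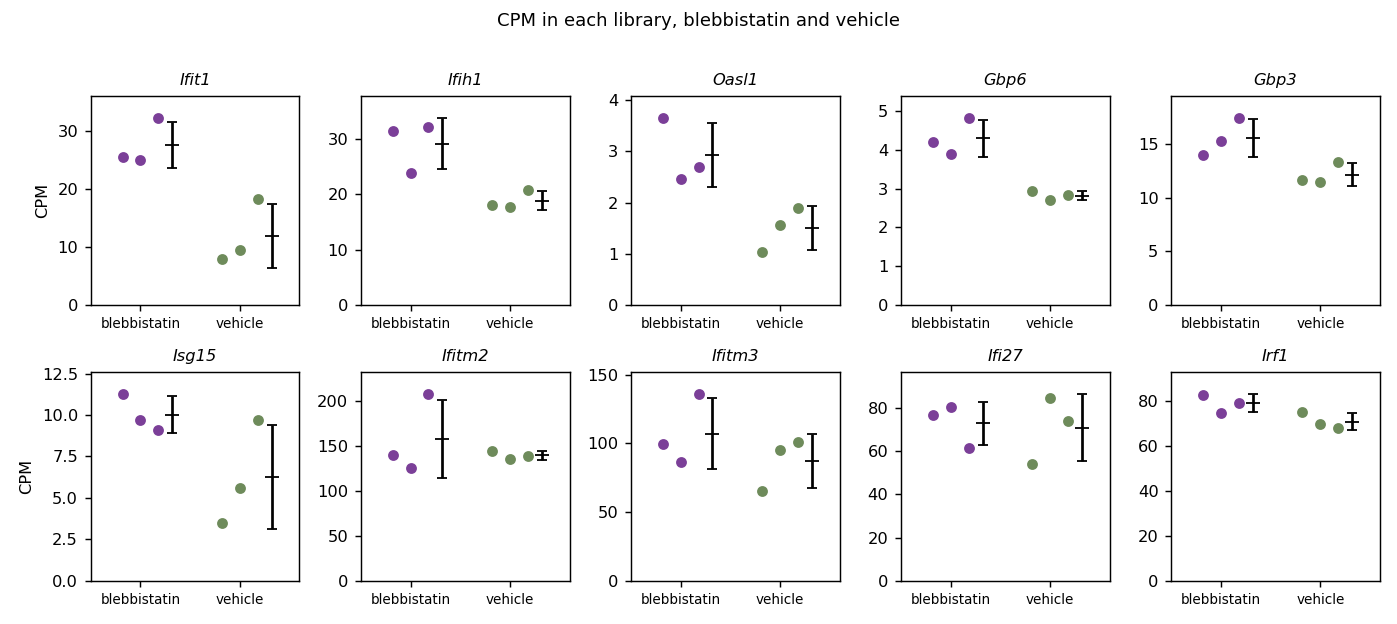
CPM (vertical axes, each from 0) in each blebbistatin and vehicle library for the 6 members with an unadjusted p under 0.05 and for Ifitm2, Ifitm3, Ifi27 and Irf1, with the mean ± SD beside each group (n = 3 each). Points of the groups are apart for Ifit1, Ifih1, Oasl1, Gbp6 and Gbp3 and overlap in the other panels.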

How the data were processed

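Stranded libraries were prepared from TRIzol-extracted RNA, per the labels' protocols. The submitters' processing notes name STAR, HOMER and edgeR and the mm9 build. Tool versions and the strand setting of the counting were not given in the sources used here. The deposited gene signal is exon read counts scaled by 1 factor per library, from which whole reads were recovered (100% of values of up to 1000 reads within 0.1 of a whole read). Beside these values stand log2 fold changes and edgeR p-values computed by the authors, and 2 further deposited tables hold RPKM. For 9 members (Ifih1, Zbp1, Irf7, Irf9, Mx1, Mx2, Ifi27, Xaf1 and Gbp3) the tissue count and RPKM tables keep different transcripts, so the reads behind them can differ. A deposited sheet of myosin RPKM (8 columns) was not used.

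CPM with TMM factors was computed from the scaled counts, and log2(CPM + 0.5) was tested with limma 3.58.1 (empirical Bayes, trend and robust) in R 4.3.3, separately for tissues and cells with group as the only term. The pseudocount shrinks log2 fold changes of low genes, but a library with 0 reads can enlarge them. Beside the authors' values, the fall in BAT was larger here for Oasl1 (-2.97 against -2.67) and Zbp1 (-1.75 against -1.68). It was smaller here for Oas3 (-1.96 against -2.35). Genes entered by filterByExpr (minimum count 10, minimum total 15), p-values were Benjamini-Hochberg adjusted over all genes tested, and genes under 0.05 were called. Alternatives were edgeR 4.0.16 quasi-likelihood and DESeq2 1.42.0 on recovered reads, other scalings, filters and pseudocounts, RPKM and leaving out libraries. A count of 0 allows up to 3 reads, and such limits cover counting error only.

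Values are given per library for up to 8 called members with the largest log2 fold change in each direction and for the 4 members with the highest mean RPKM, and for up to 3 called genes of every other list as summary values. Cell members with an unadjusted p under 0.05 were added after their values were seen. The members and lists were chosen with earlier results of these data known. Of 18 macrophage symbols 17 found a row. Mesothelial (6 of 6 lower in BAT), plasmacytoid dendritic (2 of 2 tested higher, Tcf4 and the muscle-expressed Cox6a2, which had 398.3 CPM in BAT replicate 4, 23.4 to 38.1 CPM in the other BAT libraries and 2.84 to 3.42 CPM in WAT), B (1 of 2 tested lower), T and NK (0 of 1) and neutrophil (0 of 2) markers and white or shared adipocyte markers (2 higher, 3 lower of 7) were also counted, and in cells Krt19 and Lep were lower under blebbistatin.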

Additional observations from a re-analysis of the deposited data

Results flagged for a closer look

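Within groups of 4 tissue libraries, 7 of 88 sets of member values had 1 library far from the other 3 by Dixon's criterion, where chance flags about 1 in 20. In BAT replicate 3, Trim25 was low at 33.6 CPM (others 47.5 to 50.2 CPM) and Ifitm2 was high at 182.4 CPM (others 150.3 to 155.3 CPM). In BAT replicate 4, Ifi44 was high at 8.03 CPM (others 4.97 to 5.43 CPM) and Gbp2 was low at 32.8 CPM (others 57.5 to 60.8 CPM). In BAT replicate 1, Gbp6 was high at 13.2 CPM (others 5.36 to 6.63 CPM). In WAT replicate 3, Herc6 was low at 13.3 CPM (others 16.5 to 17.1 CPM), and in WAT replicate 2, Mx2 was high at 2.21 CPM (others 0.996 to 1.16 CPM).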

How the results depend on the processing

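For BAT against WAT, 18 alternatives left the members called at 9 to 13 higher and 11 to 17 lower except on uncentred RPKM (1 higher, 31 lower, and among all genes 836 higher and 9478 lower), whose median over the members was -1.64. That median was -0.36 without TMM, -0.37 without the filter and -0.29 to -0.16 when a library was left out. On uncentred RPKM the log2 fold change turned to -1.01 for Irf1, -0.40 for Isg15, -0.26 for Usp18, -0.007 for Ifit1, -0.45 for Cmpk2, -1.06 for Ifi35, -0.77 for Xaf1 and -0.51 for Gbp3; the construction of RPKM, per mapped read, moves all genes. Near 0, Ifitm3 turned to 0.016 on centred RPKM and lay between -0.24 and 0.073 when a library was left out, and Bst2 between -0.40 and 0.045. With a pseudocount of 0.1 Ifitm2 lost its call (adjusted p = 0.0513).

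For blebbistatin against vehicle, 0 members were called in all alternatives except DESeq2 (2 higher) and without vehicle replicate 3 (1 higher), so leaving out a library gave 0 to 1 higher. Genes called numbered 138 higher and 359 lower with DESeq2, 56 lower without TMM, 4 higher and 26 lower on RPKM, 7 higher on centred RPKM, and 0 to 54 higher and 13 to 267 lower when a library was left out; the cause was not tested. Leaving out a library moved Ifi27 between -0.13 and 0.19 and Ifitm2 between -0.084 and 0.28.

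Deviations of same-numbered libraries correlated at -0.04 to 0.07 in tissues and -0.49 to 0.32 in cells. Of the libraries, 1 of 8 in tissues and 1 of 6 in cells correlated best with its own number. These values cannot decide whether same-numbered libraries share an animal or a culture, because tissues of the same animal need not deviate together. With the replicate block 12 members were higher and 12 lower in BAT (Ifitm2 lost its call, adjusted p = 0.0698), and in cells 0 genes were higher and 30 lower, with 0 members called. Depth limits the values of low members in BAT, where 1 read stands for 0.441 to 1.09 CPM, against 0.0579 to 0.135 CPM in WAT.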
